A study of Mus musculus with 24 samples.

Results

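The 8 genes Ager, Hopx, Pdpn, Aqp5, Rtkn2, Clic5, Emp2 and Cav1, which mark type 1 alveolar cells, were taken by symbol from a lung RNA-seq table of 23891 genes. All 8 were found and all 8 passed the filter of a mean of at least 1 CPM (counts scaled to a fixed total per sample). Their levels were compared in whole left-lobe RNA, not sorted cells, in 24 samples from C57BL/6 mice. Naïve adult mice (20 wk, n = 5) and naïve aged mice (80 wk, n = 5) are labelled as treated with saline. Aged mice (80 wk) were sensitized and challenged with intranasal house-dust mite extract (HDM, 50 μg a dose, n = 7). A further 7 aged mice received HDM and intraperitoneal dexamethasone (Dex, 4 mg/kg every 72 h through the challenge period). HDM-challenged lungs were collected 24 h after the last challenge. The naïve aged mice served as the saline controls of the HDM comparisons. No HDM-challenged adult mice were analysed here, so that no comparison of the HDM response between ages was made.

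Type 1 alveolar cells are the thin, flat cells that cover most of the gas-exchange surface, where they lie against the capillary endothelium across a shared basement membrane. They arise from type 2 alveolar cells, which make surfactant and act as their progenitors after injury, through an intermediate state rich in keratins. The proteins encoded by the 8 genes do different work in these cells. Hopx is a small homeodomain protein that acts with other factors on transcription. Ager encodes RAGE, a receptor of the immunoglobulin family, and Pdpn encodes podoplanin, a mucin-like membrane protein linked to the cytoskeleton through ezrin and moesin. Aqp5 is a water channel of the apical membrane. Clic5 belongs to the chloride intracellular channel family and associates with ezrin, Emp2 is a tetraspan membrane protein, and Cav1 forms the coat of caveolae. Cav1 is also abundant in endothelium, Hopx in heart muscle, and Pdpn in lymphatic endothelium, mesothelium and stromal cells.

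The 250 bases before the RefSeq start (GRCm38.p6) are shown for the members that moved together after HDM, Hopx, Clic5 and Cav1, and for Pdpn, whose mean was higher. No sequence is printed for Rtkn2. Of the 8 members, 7 were matched. Each window is written 5′ to 3′ on the strand of its gene, and capitals mark the letters AGAACA, the half-site bound by the glucocorticoid receptor.
Hopx, chr5:77115124-77115373, minus strand: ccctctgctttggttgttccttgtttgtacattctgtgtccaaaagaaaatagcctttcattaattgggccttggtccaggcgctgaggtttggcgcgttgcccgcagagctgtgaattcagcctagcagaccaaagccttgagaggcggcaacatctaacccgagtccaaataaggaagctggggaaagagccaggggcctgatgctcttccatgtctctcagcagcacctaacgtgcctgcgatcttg
Clic5, chr17:44188322-44188571, plus strand: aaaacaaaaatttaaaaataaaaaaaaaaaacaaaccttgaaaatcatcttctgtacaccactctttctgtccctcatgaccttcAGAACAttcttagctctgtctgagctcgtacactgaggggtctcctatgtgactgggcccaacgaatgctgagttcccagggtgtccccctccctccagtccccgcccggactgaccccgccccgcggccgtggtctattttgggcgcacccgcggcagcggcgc
Cav1, chr6:17306085-17306334, plus strand: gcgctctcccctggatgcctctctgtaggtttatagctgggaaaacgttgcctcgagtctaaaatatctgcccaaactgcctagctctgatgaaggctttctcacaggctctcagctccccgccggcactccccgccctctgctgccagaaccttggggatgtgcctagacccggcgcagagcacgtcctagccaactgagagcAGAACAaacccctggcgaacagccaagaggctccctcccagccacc
Pdpn, chr4:143299565-143299814, minus strand: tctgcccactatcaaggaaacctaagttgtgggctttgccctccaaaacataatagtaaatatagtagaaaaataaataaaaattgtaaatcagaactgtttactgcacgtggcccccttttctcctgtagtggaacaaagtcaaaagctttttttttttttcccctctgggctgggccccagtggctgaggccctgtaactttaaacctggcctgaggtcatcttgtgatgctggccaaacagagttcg

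The GC content of these windows was 52.4% for Hopx, 52.8% for Clic5, 59.6% for Cav1 and 43.2% for Pdpn, against a median of 52.4% over 32851 promoters. Pdpn held 2 CG dinucleotides, and Hopx, Clic5 and Cav1 held 8, 13 and 10. AGAACA or its complement TGTTCT began 165 bases before the start of Clic5 and 46 bases before that of Cav1, and was not among the letters of the Hopx and Pdpn windows. The half-site was present in 16.1% of all promoters. GGAATG or CATTCC, the letters bound by TEAD factors, occurred in 12.6% of promoters and in none of the 9 windows of the 7 matched members. CACTTG or CAAGTG, a core bound by NKX2-1, occurred in 11.6% of promoters and in none of the 9. No window held more than 1 kind of motif, so that no matches overlapped. These matches describe the letters only.

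In GENCODE M21 (GRCm38), Ager spans chr17:34597862-34600936 (+), Hopx chr5:77086988-77115121 (-), Pdpn chr4:143267431-143299564 (-) and Aqp5 chr15:99590782-99594829 (+). Rtkn2 spans chr10:67979570-68059740 (+), Clic5 chr17:44188584-44280172 (+), Emp2 chr16:10281749-10313968 (-) and Cav1 chr6:17306335-17341452 (+). The deposited row of Clic5 starts at 44134768, upstream of the GENCODE start used here, so that its level per length and its promoter rest on another start than its counts may. Antisense genes overlap Hopx, Rtkn2 and Cav1. Their mean levels were 3.58 CPM for Hopxos, 1.19 CPM for Gm16212 and 0.394 CPM for Gm15581, against 141, 165 and 217 CPM for the member each overlaps. Whether reads were assigned by strand is not given in the sources used here.

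Depth was estimated at 10.1 to 33.1 M reads per sample, and a detection limit of 3 reads then lay between 0.0906 and 0.298 CPM. The lowest value of any of the 8 genes, 18.5 CPM, was far above it. The signal recognition particle RNA 7SL (Rn7s1 and Rn7s2), a short noncoding RNA, took 9.92% to 42.0% of the CPM of a sample. Its median share was 16.2% in naïve adult lungs and 10.9% in naïve aged lungs, against 28.1% with HDM and 26.8% with HDM + Dex. Since CPM are shares of a total, each comparison was also made after median-of-ratios rescaling, which moved the all-gene median for HDM vs. saline from −0.23 to −0.01 on the log2 scale. Naïve adult replicate 1 stood apart, with 42.0% 7SL RNA. The labels give no sex. By Xist, 5 of 5 naïve adult, 2 of 5 naïve aged, 2 of 7 HDM and 4 of 7 HDM + Dex mice were female. All samples of the naïve aged group had 7SL shares under 25%, whereas 5 of 7 HDM samples, the 5 males, were above it. The 7SL share, sex and challenge cannot be fully told apart in HDM vs. saline. Of the 7 HDM + Dex samples, 4 were over 25%, so that the 7SL share and treatment cannot be fully told apart in HDM + Dex vs. saline either.

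**Figure D1:**
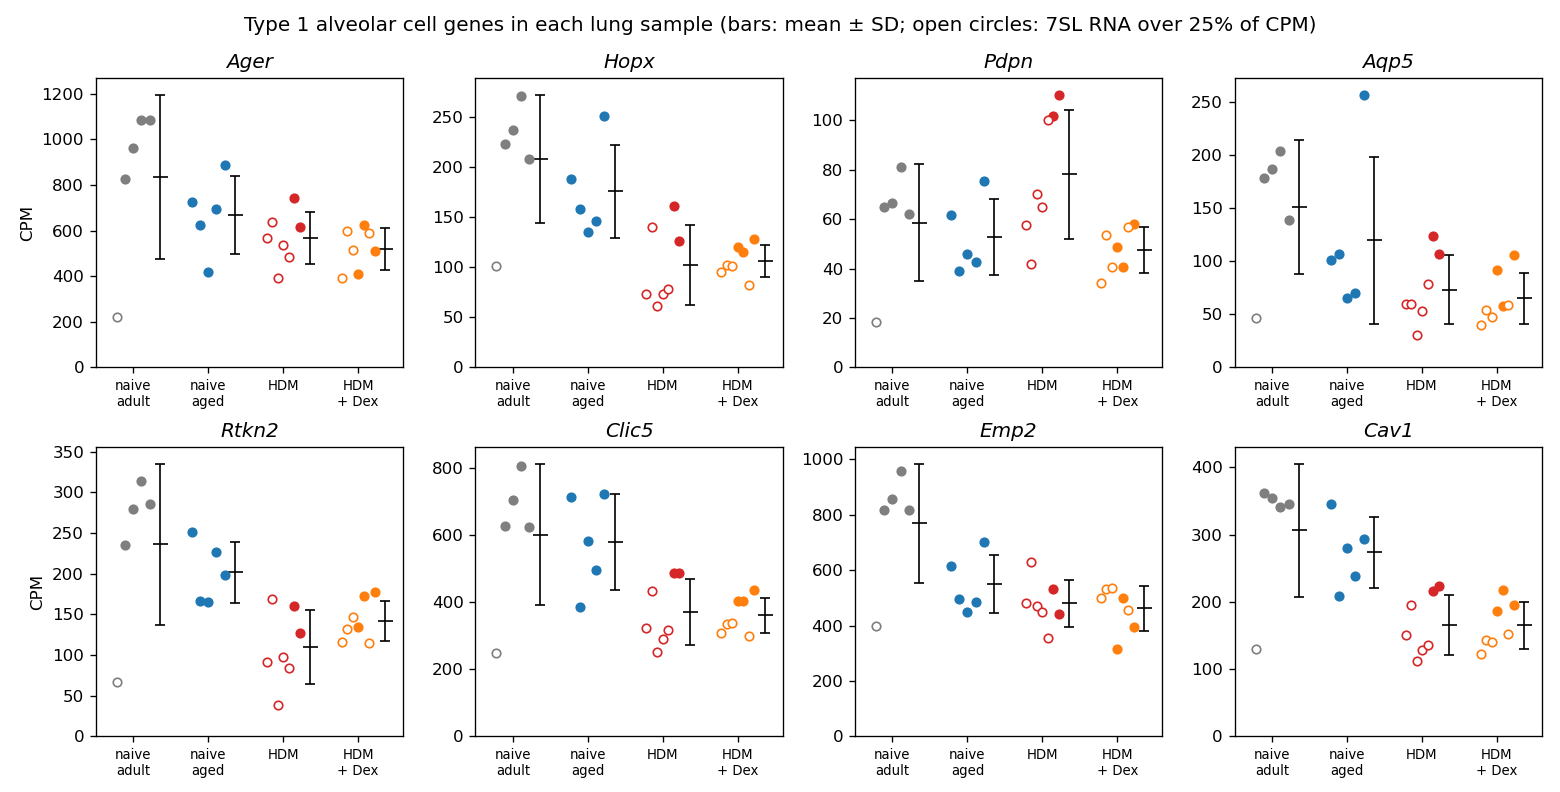
Level of the 8 genes in CPM (vertical axes from 0) in each of 24 lung samples of 4 groups; bars give the mean ± SD of 5, 5, 7 and 7 mice, and open circles mark samples with 7SL RNA over 25% of CPM. Pdpn reached 110 CPM in HDM lungs, above the 75.6 CPM of the highest saline lung, whereas Cav1 fell from 274 to 166 CPM on average.

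Per kilobase of exon, the naïve aged lung held most Ager, at 313 ± 79.8 CPM/kb (SD, n = 5). Hopx followed at 116, Cav1 at 79.5, Clic5 at 66.1, Emp2 at 63.6, Aqp5 at 46.1, Rtkn2 at 36.4 and Pdpn at 29.1 CPM/kb. The ranges over samples of Ager and Hopx did not overlap, and those of every other pair of neighbours in this order did. Aqp5, at 25.0 to 98.7 CPM/kb, overlapped each member but Ager. In bulk lung, fewer cells of a type and less RNA per cell cannot be told apart, and this holds for each difference below.

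After HDM challenge of aged lungs, in deposited CPM, Hopx, Rtkn2, Clic5 and Cav1 fell to between 0.51 and 0.64 of the saline level. Ager and Emp2 differed little, and Pdpn was the one member with a higher mean. After rescaling the 4 falls were smaller, with log2 fold changes from −0.73 for Rtkn2 to −0.39 for Clic5. The HDM means of Ager and Emp2 then also lay above saline (591.7 vs. 591.3 and 508 vs. 484 rescaled CPM). Whether members differed from each other in their response was tested by the ratio to Ager, given below, where none passed after adjustment. By limma (log2(CPM + 1), Benjamini-Hochberg over 17744 genes), 4 of 8 members were lower and 0 higher, where 21.2% of all genes tested were lower. After rescaling, the same 4 were lower, against 11.5% of all genes, and Pdpn was higher, against 10.9%. Over all genes the rescaling changed the split from 717 higher and 3765 lower to 1930 and 2046. The median log2 fold change of the 8 members was −0.64 as deposited and −0.39 after rescaling, beside −0.23 and −0.01 for all genes. No member was lower without overlap between the groups, a pattern met by 7.69% of genes.

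Rtkn2 had the largest log2 fold change of the 8. It measured 251, 167, 165, 227 and 198 CPM in the 5 saline lungs, and from 38.3 to 168 CPM in the 7 HDM lungs, with a median of 98.2. The highest HDM lung barely overlapped the lowest saline lungs, and 33 of 35 pairs of an HDM and a saline lung had the lower value in HDM. Rtkn2 fell by 0.98 ± 0.25 (SE) on the log2 scale (adjusted p = 0.0077), and by 0.73 after rescaling (adjusted p = 0.0193, but 0.0643 without saline replicate 1).

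Cav1, the caveolar coat protein, was at 346, 209, 281, 238 and 294 CPM in saline lungs and between 112 and 223 CPM in HDM lungs (median 152). Only the top of the HDM group reached the range of the saline group. The fall was 0.74 ± 0.18 on the log2 scale (adjusted p = 0.0062), and 0.49 after rescaling (adjusted p = 0.0086).

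Hopx measured 188, 158, 135, 146 and 251 CPM in saline lungs, and HDM lungs ranged from 61.2 to 161 CPM with a median of 78.6. Of the 7 HDM lungs, replicates 2 and 6 lay inside the saline range and the others below it. Hopx fell by 0.83 ± 0.21 on the log2 scale (adjusted p = 0.0079) and by 0.58 after rescaling (adjusted p = 0.0170, but 0.0581 without saline replicate 5). Markers of heart muscle, where Hopx is also expressed, moved with it: all 7 were lower after HDM, and their summed level went from 621 to 1164 CPM in saline lungs to 30.3 to 495 CPM in HDM lungs. The part of heart tissue in the Hopx difference was not tested.

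Clic5 was at 714, 386, 583, 495 and 724 CPM in saline lungs and at 251 to 489 CPM in HDM lungs (median 325). The lowest saline lung lay within the HDM range. Clic5 fell by 0.65 ± 0.18 on the log2 scale (adjusted p = 0.0136). After rescaling the fall was 0.39 (adjusted p = 0.0316), and this call was lost in 7 of 12 fits that left out 1 sample (saline replicates 1, 3 and 5 and HDM replicates 1, 3, 4 and 5, adjusted p up to 0.114).

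Each of the 4 falls was called in 12 of 12 fits that left out 1 sample of the deposited CPM. By two-sided exact permutation tests of mean CPM, p was 0.0076 for Rtkn2 and Cav1 and 0.0202 for Hopx and Clic5, and after Benjamini-Hochberg adjustment over the 32 tests of 8 genes in 4 comparisons none was under 0.0539. On rescaled CPM, the permutation p adjusted over 32 tests was 0.0462 for Cav1, 0.0606 for Rtkn2 and 0.113 for Hopx and Clic5. Within samples of under 25% 7SL RNA (2 HDM, 5 saline), the means were 144 vs. 202 CPM for Rtkn2, 219 vs. 274 for Cav1, 144 vs. 176 for Hopx and 488 vs. 580 for Clic5, with exact permutation p from 0.0952, the smallest this size allows, to 0.476. No saline lung was over 25%. With the 7SL share as a covariate, none of the 4 was called (adjusted p 0.26 to 0.49, limma). Within males, 5 HDM against 3 saline lungs gave 145 vs. 283 CPM for Cav1 and 85.2 vs. 199 for Hopx (exact permutation p = 0.0357 for each, the smallest possible), and 96.1 vs. 205 for Rtkn2 and 324 vs. 608 for Clic5 (exact permutation p = 0.0714 for each). After rescaling, the exact permutation p within males was 0.0714 for Cav1, Hopx and Clic5 and 0.107 for Rtkn2. Within females, 2 against 2, the means were 144 vs. 196 CPM for Rtkn2, 219 vs. 259 for Cav1, 488 vs. 539 for Clic5 and 144 vs. 140 for Hopx, and p cannot go below 0.333. The 7SL and sex subsets are not separate checks. The 5 male HDM lungs were all over 25% 7SL RNA and the 3 male saline lungs all under it. The 2 female HDM lungs are the same 2 as those under 25%.

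Ager, the receptor gene, was at 725, 627, 417, 695 and 887 CPM in saline lungs and at 391 to 743 CPM in HDM lungs (median 566). The groups overlapped through most of their range. The log2 fold change was −0.22 ± 0.18 (adjusted p = 0.370) as deposited and 0.03 (adjusted p = 0.915) after rescaling, so that its direction depended on the scaling. Emp2 behaved much like Ager. It measured 614, 497, 448, 486 and 701 CPM in saline and 354 to 631 CPM in HDM lungs (median 472), with log2 fold changes of −0.20 ± 0.16 (adjusted p = 0.369) and, after rescaling, 0.06 (adjusted p = 0.857). Aqp5, the water channel, was at 101, 106, 64.9, 70.4 and 256 CPM in saline and 30.2 to 124 CPM in HDM lungs (median 59.8). Saline replicate 5 alone lay above 124 CPM. Its log2 fold change was −0.64 ± 0.33 (adjusted p = 0.15), and −0.39 (adjusted p = 0.33) after rescaling.

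Pdpn, the podoplanin gene, had a log2 fold change of the opposite sign. Saline lungs were at 61.5, 38.8, 45.7, 42.7 and 75.6 CPM, and HDM lungs ran from 42.0 to 110 CPM with a median of 70.0. Of the 7 HDM lungs, replicates 5, 6 and 7 lay above every saline lung. The log2 fold change was 0.53 ± 0.22 as deposited, which did not pass (adjusted p = 0.077), though it did without saline replicate 5 (0.0396) or HDM replicate 2 (0.0184). After rescaling, saline lungs were at 54.3, 37.1, 38.7, 37.5 and 64.2 and HDM lungs at 46.7 to 112 rescaled CPM, the log2 fold change was 0.78 ± 0.19, and Pdpn rose (adjusted p = 0.0063), as it did in 12 of 12 fits that left out 1 sample. The exact permutation p was 0.0909 as deposited and 0.0101 after rescaling. In samples of under 25% 7SL RNA, Pdpn was at 106 CPM in the 2 HDM and 52.9 CPM in the 5 saline lungs (exact permutation p = 0.0952, the smallest possible). Within males the means were 66.9 and 58.6 CPM (exact permutation p = 0.679, and 0.143 after rescaling), and within females, 2 against 2, 106 and 44.2 CPM (exact permutation p = 0.333, the smallest possible). The 2 female HDM lungs are the same 2 as those under 25%, so that these subsets are not separate checks.

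**Figure D2:**
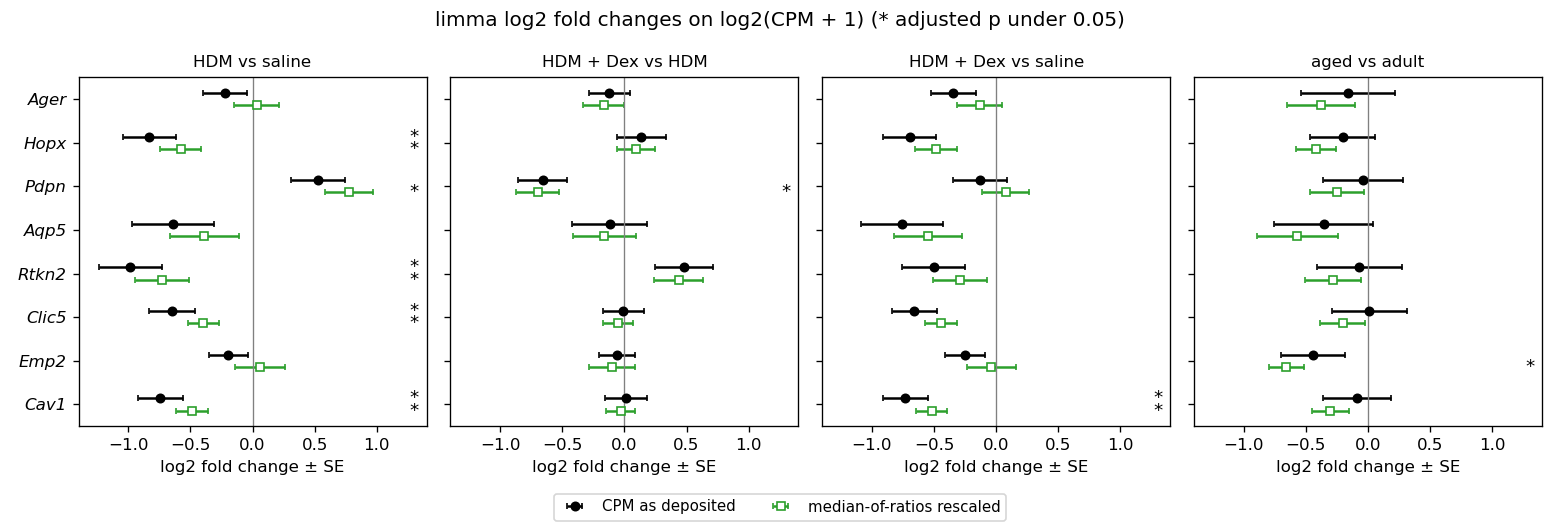
Log2 fold change ± SE (horizontal axes) of the 8 genes in 4 comparisons, from limma on log2(CPM + 1), with filled circles for CPM as deposited and open squares after median-of-ratios rescaling; a star marks an adjusted p under 0.05. Hopx, Rtkn2, Clic5 and Cav1 lie left of 0 for HDM vs. saline on both scales, and Pdpn lies right of 0 there (0.53 and 0.78) and left of 0 for HDM + Dex vs. HDM (−0.66 and −0.70).

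The ratio to Ager within a sample does not depend on the library total. This comparison was added after the values were seen. Relative to Ager, the mean log2 ratio in HDM minus saline lungs was negative for Rtkn2 (−0.77, exact permutation p = 0.0051), Hopx (−0.62, exact permutation p = 0.0076), Cav1 (−0.52, exact permutation p = 0.0126) and Clic5 (−0.43, exact permutation p = 0.0455), and positive for Pdpn (0.76, exact permutation p = 0.0354). For Emp2 the difference was 0.03 (exact permutation p = 0.881). Over the 28 ratio tests none passed after Benjamini-Hochberg adjustment, where the lowest adjusted p was 0.0816.

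**Figure D3:**
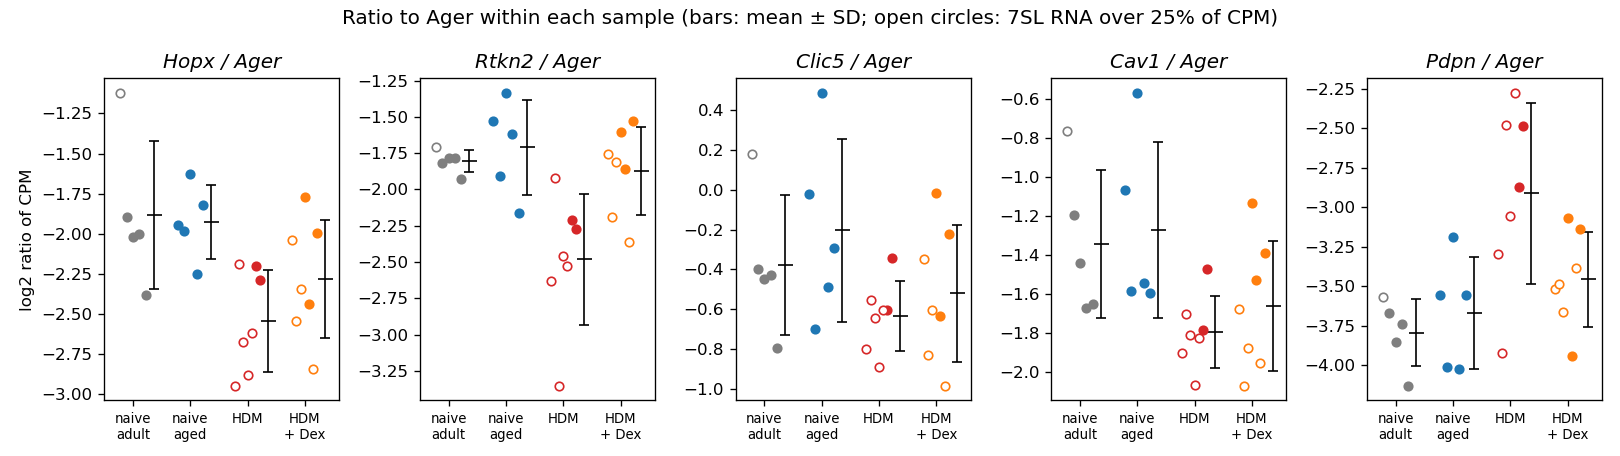
Log2 ratio of the CPM of Hopx, Rtkn2, Clic5, Cav1 and Pdpn to that of Ager in each of 24 samples (vertical axis, a scale of its own per panel), with the mean ± SD per group and open circles for 7SL RNA over 25% of CPM. The Rtkn2 ratio averaged −2.48 in HDM lungs, against −1.71 in naïve aged and −1.87 in HDM + Dex lungs, and the Pdpn ratio −2.91, against −3.67 and −3.46.

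Dex given with HDM moved no member past the threshold in deposited CPM, and 6 of the 8 differed from HDM by less than their standard error. This comparison shares its HDM samples with the one above. None of the 8 was called, where 0.964% of all genes were called in either direction. The median log2 fold change of the members was −0.03 as deposited and −0.08 after rescaling, beside 0.03 and 0.00 for all genes. Hopx (0.14), Clic5 (−0.01), Cav1 (0.01), Emp2 (−0.06), Ager (−0.12) and Aqp5 (−0.12) were these 6, and the 95% intervals ran from −0.33 to 0.36 for Cav1 and from −0.27 to 0.54 for Hopx. For the 7 heart muscle markers the median log2 fold change with Dex was 1.44 (1.42 after rescaling), with none called as deposited and 1 higher after rescaling. Their summed levels overlapped, at 30.3 to 495 CPM in HDM and 70.5 to 1333 CPM in HDM + Dex lungs. The part of heart tissue in the Hopx values was not tested.

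Pdpn was the member that differed most with Dex. HDM + Dex lungs held 34.1 to 58.0 CPM of Pdpn (median 48.8), against 42.0 to 110 CPM in HDM lungs, and 44 of 49 pairs of lungs had the lower value with Dex. Of the 7 HDM lungs, 5 lay above every HDM + Dex lung. The log2 fold change was −0.66 ± 0.20 (adjusted p = 0.109), with an exact permutation p of 0.0099 (0.0539 after adjustment over the 32 tests). After rescaling Pdpn fell by 0.70 on the log2 scale (adjusted p = 0.0334), one of 0.862% of genes lower there. That call was lost in 8 of 14 fits that left out 1 sample (HDM replicates 3, 4, 5 and 7 and HDM + Dex replicates 1, 3, 4 and 5, adjusted p up to 0.0822), and on the deposited CPM it was reached without HDM replicate 2 (adjusted p = 0.0245). Means were 49.2 vs. 106 CPM under 25% 7SL RNA (3 against 2, exact permutation p = 0.2) and 46.2 vs. 66.9 CPM above it (4 against 5, exact permutation p = 0.0794). The 4 mesothelial markers, 1 of which is Wt1, had log2 fold changes below 0 with Dex, with a median of −0.40 (−0.44 after rescaling), and none passed.

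Rtkn2 was the other member whose log2 fold change with Dex exceeded its standard error, and it did not pass. It ranged from 115 to 177 CPM in HDM + Dex lungs (median 134), where the lowest lung lay above the HDM median of 98.2. The log2 fold change was 0.48 ± 0.23 (adjusted p = 0.365), and 0.44 after rescaling (adjusted p = 0.236). The ratio of Rtkn2 to Ager was higher by 0.61 on the log2 scale (exact permutation p = 0.0087, 0.0816 after adjustment over 28 tests).

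Compared with saline, the HDM + Dex lungs held less of all 8 members on average in deposited CPM, with log2 fold changes from −0.76 for Aqp5 to −0.13 for Pdpn. After rescaling, Pdpn was at 0.08 and Emp2 at −0.04. The median of the 8 members was −0.58 as deposited and −0.37 after rescaling, beside −0.19 and −0.01 for all genes. Cav1 alone was called lower, at 122 to 217 CPM (median 153), where 1.44% of genes were. Capillary endothelial markers summed to 1072 to 1566 CPM, against 1430 to 1935 CPM in saline lungs, and 1 of 8 was called lower (median log2 fold change −0.44, and −0.23 with none called after rescaling). Cav1 fell by 0.73 ± 0.18 on the log2 scale (adjusted p = 0.0430), and by 0.52 after rescaling (adjusted p = 0.0498). The call was lost in 8 of 12 fits that left out 1 sample (saline replicates 1, 3, 4 and 5 and HDM + Dex replicates 1, 2, 3 and 6, adjusted p up to 0.125), and after rescaling in 10 of 12, all but those without saline replicate 2 or HDM + Dex replicate 5 (adjusted p up to 0.14). Hopx ran from 82.1 to 128 CPM in HDM + Dex lungs (median 102), all below the lowest saline lung at 135 CPM, as 1.87% of genes were. Its log2 fold change of −0.70 ± 0.21 did not pass (adjusted p = 0.0894), with an exact permutation p of 0.0025, the smallest possible. After rescaling, Hopx overlapped between the groups, with at most 116 rescaled CPM in HDM + Dex and at least 114 in saline lungs. Its log2 fold change was then −0.48 (adjusted p = 0.152), with an exact permutation p of 0.0051. Heart muscle markers were lower beside Hopx in this comparison, with a median sum of 337 CPM in HDM + Dex (70.5 to 1333) against 1028 CPM in saline lungs. All 7 had log2 fold changes below 0, with a median of −1.11 (−0.90 after rescaling), and none passed. Clic5 was at 299 to 437 CPM (median 340), with a log2 fold change of −0.66 ± 0.18 (adjusted p = 0.0614), and passed without saline replicate 2 (adjusted p = 0.0307), HDM + Dex replicate 4 (0.048) or replicate 7 (0.038). After rescaling, the log2 fold change of Clic5 was −0.45 (adjusted p = 0.0899). Under 25% 7SL RNA (3 HDM + Dex, 5 saline), means were 199 vs. 274 CPM for Cav1 (exact permutation p = 0.0714) and 121 vs. 176 for Hopx (exact permutation p = 0.0357, the smallest possible). Within males, 3 against 3, they were 135 vs. 283 CPM for Cav1 and 99.7 vs. 199 for Hopx, where the exact permutation p cannot go below 0.1. The part of the 7SL share in these differences was not tested.

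Age, compared in the naïve lungs, gave no call among the 8 members, where 0.654% of all genes were called in either direction. The naïve adult mice were all female by Xist and the naïve aged mice of both sexes. The median log2 fold change of the members, aged vs. adult, was −0.13 as deposited and −0.34 after rescaling, beside 0.19 and 0.00 for all genes. Emp2 differed most. Adult lungs were at 397, 815, 857, 956 and 815 CPM and aged lungs at 614, 497, 448, 486 and 701 CPM, so that adult replicate 1 lay below the aged range and the other adult lungs above it. The log2 fold change of Emp2 was −0.44 ± 0.26 (adjusted p = 0.514).

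After rescaling, adult lungs held 654, 735, 757, 845 and 789 rescaled CPM of Emp2 and aged lungs 542, 475, 380, 427 and 596. Every aged lung then lay below every adult lung, as in 1.67% of genes, with an exact permutation p of 0.0079, the smallest possible. Emp2 fell by 0.66 ± 0.14 on the log2 scale after rescaling (adjusted p = 0.0432), among 0.451% of genes called lower. The call was lost in 8 of 10 fits that left out 1 sample (adult replicates 2, 3, 4 and 5 and aged replicates 1, 2, 3 and 4, adjusted p up to 0.118). Under 25% 7SL RNA, that is without adult replicate 1, the deposited means were 549 vs. 861 CPM for Emp2 (exact permutation p = 0.0159, the smallest possible), 670 vs. 990 for Ager (exact permutation p = 0.0317), 202 vs. 279 for Rtkn2 (exact permutation p = 0.0317) and 274 vs. 351 for Cav1 (exact permutation p = 0.0476). For the other members in this subset, the exact permutation p was 0.0794 for Hopx, 0.111 for Pdpn, 0.222 for Aqp5 and 0.238 for Clic5. These subset p-values are not adjusted for the number of genes. In the 2 aged and 5 adult females, Emp2 averaged 467 and 768 CPM (exact permutation p = 0.286). After rescaling these means were 403 and 756 rescaled CPM (exact permutation p = 0.0952, the smallest possible).

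The other adult levels overlapped the aged ones on both scales. Ager was at 220, 828, 961, 1084 and 1085 CPM in adult lungs, with a log2 fold change for age of −0.16 ± 0.38 (adjusted p = 0.851). Hopx ranged from 101 to 271 CPM, Rtkn2 from 67.2 to 314, Clic5 from 248 to 806, Cav1 from 129 to 361, Aqp5 from 46.5 to 204 and Pdpn from 18.5 to 81.0 CPM, and in each of the 8 genes adult replicate 1 was the lowest adult lung. Log2 fold changes with age of these 6 lay between −0.36 for Aqp5 and 0.01 for Clic5.

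Across the 24 samples, with group means removed, the 8 genes varied together in deposited CPM. Pearson r of log2(CPM + 1) over the 28 pairs ran from 0.379 to 0.947, with a median of 0.747, as a description over samples that share the same library totals. The samples include adult replicate 1, the lowest adult lung for all 8 genes. It held 220 CPM of Ager, against 828 CPM or more in the other adult lungs. Its part in these correlations was not tested. After rescaling the range was −0.105 to 0.831 and the median 0.500. Clic5 and Cav1 were the closest pair on both scales (0.947 and 0.831). After rescaling, Pdpn had a median r of 0.235 to the other 7 and Emp2 one of 0.284, against 0.554 among the 21 pairs without Pdpn. In deposited CPM the lowest median r was that of Emp2 (0.607), followed by Pdpn (0.668), and the lowest pair after rescaling was Aqp5 with Emp2 (−0.105).

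**Figure D4:**
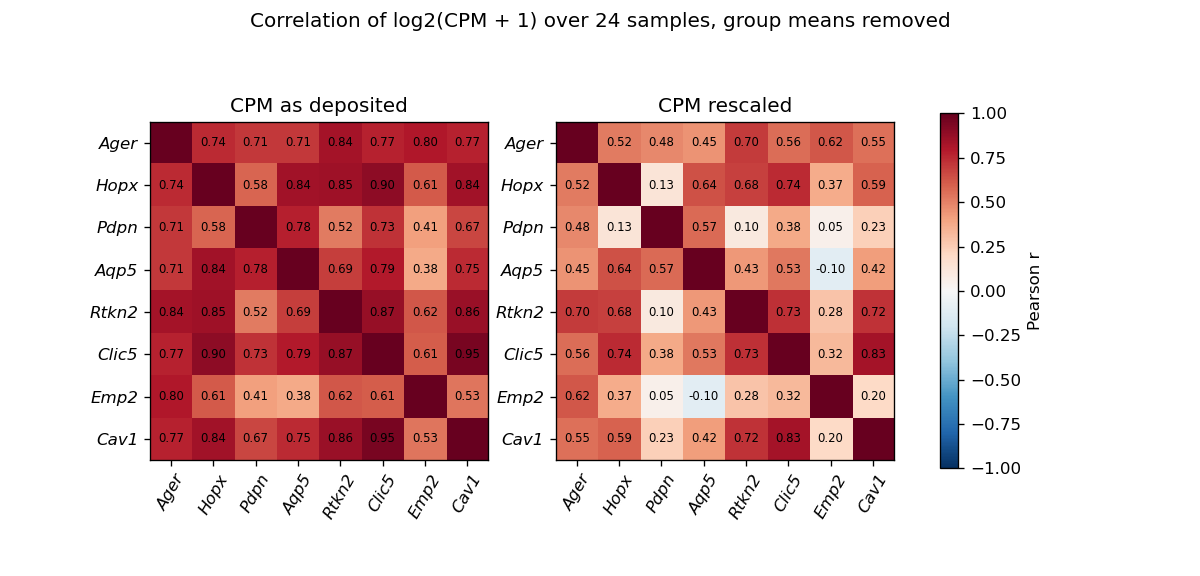
Pearson r between pairs of the 8 genes over 24 samples, on log2(CPM + 1) with group means removed, for CPM as deposited (left) and after median-of-ratios rescaling (right); the colour scale runs from −1 to 1. Clic5 and Cav1 pair most closely (0.947 and 0.831), and the Pdpn and Emp2 rows are the palest after rescaling (medians 0.235 and 0.284).

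The genes closest to each member by the same measure, of all genes tested, were taken in deposited CPM. Adult replicate 1 was again included, and its part in these lists was not tested. Those closest to Ager were Bag1 (0.95), App (0.95) and Cgnl1 (0.94), and those closest to Hopx were Eps8l2 (0.95), Wwc1 (0.94) and Ctdspl (0.93). Aqp5 was closest to Napsa (0.94), an aspartic protease of type 2 cells, Lamb3 (0.94) and Cd151 (0.94). Among the genes closest to Rtkn2 were Cped1 (0.94) and Plce1 (0.94), and Clic5 was closest to Ctnna1 (0.97), which encodes alpha-catenin, Nebl (0.96) and Ahnak (0.95). Emp2 was closest to Slain2 (0.89), Irx3 (0.89) and Uaca (0.86), and Cav1 to Trp53bp2 (0.96), Mpp5 (0.95) and Phactr2 (0.95). Pdpn was closest to Icam1 (0.92), a leukocyte adhesion molecule, Wt1 (0.92), a transcription factor of mesothelium, and Prr13 (0.92). After rescaling, Wt1 (0.89), Icam1 (0.85) and Itgb6 (0.83) were closest to Pdpn. Wt1 was low, with group means from 1.41 to 2.42 CPM and a minimum of 0 CPM in adult lungs. The closest gene after rescaling stayed Eps8l2 (0.89) for Hopx and Ctnna1 (0.89) for Clic5. It was then App (0.90) for Ager, Lamb3 (0.89) for Aqp5, Plce1 (0.89) for Rtkn2, Mprip (0.88) for Emp2 and Plod2 (0.87) for Cav1.

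Other cells that express members were followed by their markers. Beside each list count for HDM vs. saline below stand the shares over all genes. Of these, 21.2% were lower as deposited, and 11.5% lower and 10.9% higher after rescaling, with medians of −0.23 and −0.01. Of the 4 mesothelial markers, none passed in HDM vs. saline in deposited CPM, though all 4 log2 fold changes were above 0 (median 0.36, and 0.55 after rescaling), and Lrrn4 was higher after rescaling (log2 fold change 0.88, adjusted p = 0.0310). Their summed level was 18.3 to 49.4 CPM in saline, 17.3 to 63.3 in HDM and 13.2 to 42.9 CPM in HDM + Dex lungs, with medians of 28.8, 38.8 and 32.5 CPM. Of 5 lymphatic markers 1, Lyve1, was lower (−0.73, adjusted p = 0.0118), and the summed levels overlapped (209 to 341 CPM in saline, 137 to 273 CPM in HDM lungs). Of 8 capillary endothelial markers, 5 were lower and none higher, with a median log2 fold change of −0.51 (−0.26 after rescaling, 2 lower). Their sum went from 1430 to 1935 CPM in saline to 875 to 1489 CPM in HDM lungs. Ednrb, the endothelin receptor of alveolar capillaries, fell by 1.28 and Cdh5, the endothelial cadherin, by 0.74 on the log2 scale, and Cav1 fell beside them. The parts of endothelium in the Cav1 difference and of mesothelium in the Pdpn difference were not tested.

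Among 8 markers of type 2 alveolar cells none was called lower and 1 higher, Sftpd, a collectin of surfactant (0.79, adjusted p = 0.0201), with a median log2 fold change of −0.12 (0.14 after rescaling). Of 5 airway markers 4 were lower and Muc5ac higher, of 5 fibroblast markers 3 were lower and the collagens Col1a1 and Col3a1 higher, of 8 leukocyte markers 1 was higher and 1 lower, and of 3 red blood cell markers none passed. After rescaling, 3 airway markers were lower and 1 higher, and 2 fibroblast markers were lower and 2 higher. Of the leukocyte markers 3 were then higher and 1 lower, and no red blood cell marker passed. The summed leukocyte level was 347 to 726 CPM in saline and 586 to 3117 CPM in HDM lungs. Most of that difference lay in Chil3, which averaged 134 CPM in saline and 1393.5 CPM in HDM lungs. Ptprc, the pan-leukocyte gene of the list, averaged 301 and 293 CPM, and S100a8 26.7 and 10.8 CPM. The sum therefore does not measure leukocyte number. None of the defining markers in these lists was at 0 in a whole group.

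Among 17 other genes of type 1 cells, 8 were lower and none higher in HDM vs. saline, with a median log2 fold change of −0.54, and 5 were lower after rescaling (median −0.29). Limch1, an actin regulator, fell by 0.97 (adjusted p = 0.0012), Mal2 by 0.93 (adjusted p = 0.0031) and Vegfa, the growth factor that type 1 cells supply to capillaries, by 0.70 on the log2 scale (adjusted p = 0.0051). None of the 17 passed in HDM + Dex vs. HDM, and 1 was lower in HDM + Dex vs. saline. None passed with age, where the lowest p belonged to Igfbp2 (0.55), Ndnf (−0.46) and Col4a3 (−0.40).

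Of 11 regulators of type 1 cells and targets of YAP and TAZ, 6 were lower after HDM (median −0.53) and 4 after rescaling (median −0.29). Tead1, the DNA-binding partner of YAP, fell by 0.76 (adjusted p = 0.0019), Yap1 by 0.68 (adjusted p = 0.0038) and Lats2, a kinase that restrains YAP, by 0.58 on the log2 scale (adjusted p = 0.0075). None passed with Dex against HDM or with age, where Ankrd1 (0.37), Yap1 (0.19) and Amotl2 (−0.26) had the lowest p.

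Of 10 markers of the state between type 2 and type 1 cells, 1 was higher and 2 lower after HDM (median −0.27), and 1 higher and none lower after rescaling (median −0.02). Lgals3, galectin-3, which macrophages also make, rose by 1.79 (adjusted p = 0.00072), Cdkn1a, a cell cycle inhibitor, fell by 0.65 (adjusted p = 0.0157) and Nupr1 by 0.39 on the log2 scale (adjusted p = 0.0485). Krt8, the keratin that names this state, had a log2 fold change of −0.64 (adjusted p = 0.0648). It was chosen after its value was seen. With age, Cdkn1a (1.03), Sfn (0.60) and Nupr1 (0.45) had the lowest p and did not pass.

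For the partners of Ager, 5 of 6 RAGE ligand and adaptor genes were tested, and 1 was higher and 3 lower after HDM (median −0.50, and −0.25 after rescaling with 1 higher and 1 lower). S100a4 rose by 1.20 (adjusted p = 0.0012). S100a8 and S100a9, which neutrophils make, fell by 1.46 (adjusted p = 0.0168) and 1.52 on the log2 scale (adjusted p = 0.0291). With age, S100a8 rose by 2.19 (adjusted p = 0.0020) and S100a9 by 2.06 (adjusted p = 0.0052), and S100a4 was at 0.41 (adjusted p = 0.495).

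For Cav1, 6 of 7 other caveola coat genes were tested, and 2 were lower after HDM on both scales (median −0.32, and −0.07 after rescaling). Cavin2 fell by 1.03 (adjusted p = 0.0028) and Cav2 by 1.00 on the log2 scale (adjusted p = 0.0075), while Cavin1 was at −0.32 (adjusted p = 0.105). With age, Cavin3 (−0.26), Pacsin2 (0.20) and Ehd2 (−0.15) had the lowest p of the list. For Aqp5, 2 of 3 other lung aquaporins were lower after HDM (median −0.52, and −0.26 with 1 lower after rescaling). Aqp4 fell by 1.64 (adjusted p = 0.0112) and Aqp1, the endothelial water channel, by 0.52 on the log2 scale (adjusted p = 0.0431), and Aqp3 was at 0.61 (adjusted p = 0.0754). Their log2 fold changes with age were 0.24 for Aqp1, −0.38 for Aqp3 and 0.17 for Aqp4, none of which passed.

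For Clic5, 1 of 4 other CLIC genes was lower after HDM (median −0.35), and 1 was lower and 1 higher after rescaling (median −0.10). Clic6 fell by 0.98 on the log2 scale (adjusted p = 0.0045) and rose by 0.92 with Dex against HDM (adjusted p = 0.0356), the one gene of these pathway lists called in that comparison. Clic4 was at −0.31 (adjusted p = 0.0865), and Clic1 at 0.38 (adjusted p = 0.104) and 0.63 after rescaling (adjusted p = 0.0042). With age, Clic3 (−0.56), Clic6 (−0.22) and Clic4 (0.27) had the lowest p. For Emp2, 1 of 3 relatives was lower after HDM (median −0.27, and −0.02 with 1 higher after rescaling). Pmp22 fell by 0.53 on the log2 scale (adjusted p = 0.0210), Emp1 was at −0.27 (adjusted p = 0.348), and Emp3 at 0.53 (adjusted p = 0.0586) and 0.76 after rescaling (adjusted p = 0.0061). With age, Pmp22 (−0.16), Emp3 (0.03) and Emp1 (−0.01) did not pass.

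For Pdpn, 1 of 5 partner genes was lower after HDM (median −0.26), and 1 was higher after rescaling (median −0.01). This was near all genes, of which 21.2% were lower, with medians of −0.23 and −0.01. Clec1b, the platelet receptor for podoplanin, fell by 0.63 on the log2 scale (adjusted p = 0.0155). Cd44, the hyaluronan receptor, was at 0.43 (adjusted p = 0.105) and 0.69 after rescaling (adjusted p = 0.0040), and Cd9 at −0.62 (adjusted p = 0.0646). With age, Clec1b (0.83), Cd44 (0.44) and Cd9 (0.36) did not pass. Of 6 tight junction and epithelial barrier genes, 5 were lower after HDM (median −0.52), and 2 after rescaling (median −0.27). Ocln, occludin, fell by 0.67 (adjusted p = 0.0063), Cldn3 by 0.94 (adjusted p = 0.0091) and Tjp1 by 0.54 on the log2 scale (adjusted p = 0.0114). With age, Epcam (0.30), Cldn7 (0.19) and Tjp1 (0.08) had the lowest p and did not pass.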

How the data were processed

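Lung RNA of 24 samples was analysed. Per the study's methods, the authors used a stranded mRNA kit with paired-end sequencing and a pipeline of Picard, STAR and limma. The submitters' notes also name FastQC, DESeq2 and the build mm9. The authors deposited one table of CPM, with a constant added to every value, which was subtracted here. Its gene coordinates match GENCODE M21 (GRCm38), where 23142 of 23275 matched symbols had the same start. Because 80.5% to 85.3% of low values were whole multiples of 1 read, counts were not rebuilt, and depth was estimated from that spacing. The detection limit covers counting error only.

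Samples were grouped by their labels. limma 3.58.1 in R 4.3.3 (eBayes with trend) was run on log2(CPM + 1) for the 17744 genes averaging 1 CPM or more, with Benjamini-Hochberg adjustment at 0.05. The fits used the 19 aged samples in one model and the 10 naïve samples in another. Fold changes are on the log2(CPM + 1) scale. The labels do not say that each sample is a separate mouse, so that p-values measure the spread between these samples. Exact two-sided permutation tests compared mean CPM (scipy 1.17.1). The fits were tested on simulated data.

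The members and lists were chosen with earlier results of these data known. From each list of related genes, the 3 with the lowest p in HDM vs. saline and in aged vs. adult are named, and for each member the 3 most alike genes, of which 1 is not reported here. Promoters are RefSeq's. Alternatives added after seeing the data were the 7SL share as a covariate, rescaling with sex, fits without 1 sample after rescaling, the ratio to Ager and values within 7SL or sex subsets.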

Additional observations from a re-analysis of the deposited data

Results flagged for a closer look

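By Dixon's test in each of the 32 sets of 1 member in 1 group of 5 or 7 samples, 3 values lay far from the others, where chance alone gives about 1.6. Aqp5 in naïve aged replicate 5 was at 256 CPM, with a gap of 0.784 of the range of its group. Emp2 in naïve adult replicate 1 was at 397 CPM (gap 0.748) and Cav1 in the same sample at 129 CPM (gap 0.912). That sample had 42.0% of its CPM in 7SL RNA and was the lowest adult sample for all 8 members. Its part in these values was not tested.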

How the results depend on the processing

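The 4 falls after HDM (Hopx, Rtkn2, Clic5, Cav1) were called in 26 of 27 settings each, and were lost with the 7SL share as a covariate, where 1 member, Pdpn, was called. In HDM + Dex vs. HDM 0 members were called, and 1 (Pdpn) with median-of-ratios rescaling, CPM without 7SL RNA, the 7SL covariate or rescaling with sex, and 0 to 1 when 1 replicate was left out. In HDM + Dex vs. saline 1 was called, but 0 with no filter on low values, CPM without 7SL RNA, all samples in the fit, eBayes without trend or the 7SL covariate, 3 with only the groups compared or the sex covariate, 5 with sample quality weights, 4 with the replicate block, and 0 to 2 without 1 replicate. In aged vs. adult 0 were called, and 1 with rescaling or rescaling with sex, 2 with quality weights and 3 (Rtkn2, Emp2, Cav1) with the 7SL covariate. With the replicate block, HDM vs. saline gave 5 members. Same-numbered samples mostly did not deviate together from their group means (r over 0.1 in 4 of 32 pairs, range −0.238 to 0.407). This check cannot show whether they shared a batch. The cause of these changes was not tested.

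No change of sign passed the test. The largest in size was that of Clic5 in aged vs. adult. In HDM vs. saline the log2 fold changes of Ager and Emp2 became 0.033 and 0.060 with rescaling, 0.019 and 0.046 with CPM without 7SL RNA, and 0.0085 and 0.0055 with rescaling and sex. Their differences in mean CPM became 0.364 and 24.4 with rescaling. Aqp5 became 0.17 with the 7SL covariate. Without 1 replicate after rescaling, Ager ranged from −0.14 to 0.13 and Emp2 from −0.023 to 0.14. In HDM + Dex vs. HDM, Cav1 became −0.031 with rescaling, −0.040 with CPM without 7SL RNA, −0.091 with the sex covariate, −0.093 with the 7SL covariate and −0.061 with rescaling and sex, and its difference in mean 0.012 on the log2 scale. Clic5 and Emp2 became 0.034 and 0.075 with quality weights, and Emp2 0.0070 with the sex covariate and 0.038 with rescaling and sex. Without 1 replicate, Aqp5 ranged from −0.31 to 0.027, Clic5 from −0.095 to 0.065, Emp2 from −0.13 to 0.033 and Cav1 from −0.076 to 0.090, and after rescaling Clic5 from −0.099 to 0.0071, Emp2 from −0.17 to 0.033 and Cav1 from −0.088 to 0.029. In HDM + Dex vs. saline, Pdpn became 0.078 with rescaling, 0.055 with CPM without 7SL RNA, 0.17 with the 7SL covariate and 0.080 with rescaling and sex, with a difference in mean of 2.21 CPM after rescaling, and ranged from −0.23 to 0.0072 without 1 replicate. Emp2 became 0.043 with rescaling and sex, differed in mean by 0.713 CPM after rescaling, and ranged from −0.12 to 0.093 without 1 replicate after rescaling. In aged vs. adult, Clic5 became −0.20 with rescaling, −0.15 with CPM without 7SL RNA, −0.23 with quality weights, −0.062 with the sex covariate, −0.49 with the 7SL covariate and −0.31 with rescaling and sex, and its difference in mean became 0.011 on the log2 scale. Without 1 replicate, Pdpn ranged from −0.41 to 0.11, Rtkn2 from −0.48 to 0.077, Clic5 from −0.28 to 0.15 and Cav1 from −0.38 to 0.00022.

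Over all genes, HDM vs. saline gave 4482 calls, against 1571 with the 7SL covariate, 7876 with quality weights and 2954 to 5338 without 1 replicate (from 2630 after rescaling). HDM + Dex vs. HDM gave 171, against 83 with no filter, 506 with rescaling (173 to 1264 without 1 replicate), 444 with CPM without 7SL RNA, 1 with only the groups compared, 316 with all samples, 611 with quality weights, 8 with the replicate block, 293 with sex, 563 with the 7SL covariate, 548 with rescaling and sex and 2 to 544 without 1 replicate. HDM + Dex vs. saline gave 335 (79 higher, 256 lower), against 213 with no filter, 167 with rescaling (87 higher, 80 lower, and 65 to 305 without 1 replicate), 180 with CPM without 7SL RNA, 221 without trend, 519 with only the groups compared, 190 with all samples, 5471 with quality weights, 898 with the replicate block, 1929 with sex, 34 with the 7SL covariate and 66 to 772 without 1 replicate. Aged vs. adult gave 116 (105 higher, 11 lower), against 67 with a filter at 5 CPM, 183 with rescaling (103 higher, 80 lower, and 75 to 282 without 1 replicate), 65 with all samples, 784 with quality weights and 74 to 154 without 1 replicate.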
